A study of Homo sapiens with 6 samples.

Results

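The genes described here are 40 members of the glycolytic pathway and of the transcriptional response to low oxygen, taken from a table of 18795 genes measured by RNA sequencing. They were picked by name: each row whose Entrez Gene ID maps to a listed glycolytic gene or to a listed gene of the hypoxia-inducible factor (HIF) was taken, and all 40 were matched. The glycolysis list holds 24 genes, of which 17 are enzymes, and the HIF list holds 16, of which 13 are targets, and the lists are kept apart throughout. RNA came from HCC70 and MDA-MB-468, established human lines of basal-like breast cancer. From each line 3 populations were sorted by antibody: K18+ cells, stained for keratin 18, K18+K14+ cells, stained for keratins 18 and 14, and K18+Vim+ cells, stained for keratin 18 together with the mesenchymal filament vimentin. Cells were detached with trypsin, fixed and permeabilised in methanol before staining and sorting, and no drug, genetic change or low-oxygen culture is named in the labels. Each population of each line gave 1 library, so n = 2 libraries per population and the lines are the only replicates. HCC70 was grown in RPMI and MDA-MB-468 in Leibovitz L15, both with serum. Leibovitz L15 is formulated with galactose and pyruvate instead of glucose, so culture medium and cell line cannot be told apart in any difference between the lines.

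Glycolysis splits glucose into pyruvate in the cytosol, and lactate dehydrogenase then interconverts pyruvate and lactate. HIF is a pair of proteins whose alpha subunit, such as the product of HIF1A, is hydroxylated and degraded when oxygen is present; in low oxygen it persists and binds promoters and enhancers of genes for glucose uptake, glycolysis, angiogenesis and pH control. That control acts on protein stability, so the HIF1A transcript is not a measure of HIF activity. Tumour cells often run glycolysis in the presence of oxygen, and many glycolytic genes are also targets of other factors, such as MYC.

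Values are FPKM (fragments per kilobase of transcript, scaled to the mapped fragments of the library), listed in the order K18+, K18+K14+ and K18+Vim+ for each line. A floor of 0.1 FPKM is visible in the table, and the sequencing depth is unknown. Transcripts of the sort antigens ran with the labels: KRT14 in HCC70 was 48.6 FPKM in K18+K14+ against 15.3 in K18+, and VIM was 54.8 FPKM in K18+Vim+ against 13.4; in MDA-MB-468 the same pairs were 279 against 47.8 and 259 against 12.2 FPKM. The library with the MDA-MB-468 K18+Vim+ label was unlike the others of its line. MDA-MB-468 is known for loss of SMAD4 and RB1 and for amplified EGFR. The SMAD4 level was 5.19 FPKM there against 0.566 and 0.31 in the other MDA-MB-468 libraries, the RB1 level 6.68 against 0.307 and 0.269, and the EGFR level 10.4 against 153 and 70.7. All 5 epithelial markers checked (KRT8, KRT18, KRT19, EPCAM and CDH1) were lowest there, with a sum of 195 FPKM against 1247 to 3040 in the other libraries. Its Pearson correlation with the K18+ library of its line over log2 values was 0.828, against 0.919 for K18+K14+ of the same line and 0.9705 to 0.978 in HCC70. Whether that library holds MDA-MB-468 cells was not tested. Calls between the lines are given with and without it, and so are some fitted differences in the comparisons with K18+Vim+. Folds and counts of K18+Vim+ over both lines need that library, so there the words both lines rest on its label. Summed markers were low in every library for leukocytes (5 genes, 1.59 to 7.96 FPKM), fibroblasts (5 genes, 3.92 to 9.72 FPKM) and endothelium (3 genes, 0.3 to 0.759 FPKM, with PECAM1 at the floor throughout). In sorted bulk samples, fewer cells of a kind and less RNA per cell cannot be told apart.

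Glucose enters through transporters, of which SLC2A1 (GLUT1) is the widely expressed form and SLC2A3 (GLUT3) a high-affinity form. SLC2A1 stood at 20.2, 15.96 and 17.1 FPKM in HCC70 and 36.2, 26.4 and 7.61 FPKM in MDA-MB-468. The lowest of these values belonged to the library with the MDA-MB-468 K18+Vim+ label, and the other 5 libraries showed higher values in MDA-MB-468 than in HCC70. SLC2A3 stood at 0.363, 0.1 and 0.52 FPKM in HCC70 and 0.333, 1.09 and 8.62 FPKM in MDA-MB-468, so only the library with the MDA-MB-468 K18+Vim+ label was well above 1 FPKM, and SLC2A3 entered the tests through that library.

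Hexokinase traps glucose as glucose 6-phosphate. The broadly expressed HK1 stood at 20.9, 20.5 and 22.6 FPKM in HCC70 and 29.1, 39.3 and 14.2 FPKM in MDA-MB-468, and HK2, the inducible form that is a known HIF target, at 4.22, 2.97 and 2.32 FPKM in HCC70 and 6.498, 4.38 and 7.39 FPKM in MDA-MB-468. HK1 exceeded HK2 in all 6 libraries. GPI, which makes fructose 6-phosphate, stood at 91.2, 99.9 and 84.7 FPKM in HCC70 and 157, 170.2 and 177 FPKM in MDA-MB-468, and its 3 MDA-MB-468 values all exceeded its HCC70 values. Phosphofructokinase catalyses the committed step and is built from PFKL, PFKM and PFKP subunits. PFKL stood at 61.1, 75.2 and 69.6 FPKM in HCC70 and 64.1, 84.1 and 43.7 FPKM in MDA-MB-468, with its highest value in the K18+K14+ library of each line. PFKM stood at 13.3, 8.51 and 28.7 FPKM in HCC70 and 17.9, 10.6 and 44.7 FPKM in MDA-MB-468, lowest in K18+K14+ and highest in K18+Vim+ in both lines. PFKP stood at 54.3, 39.4 and 118 FPKM in HCC70 and 51.6, 23.4 and 41.2 FPKM in MDA-MB-468, again lowest in K18+K14+ in both lines, but highest in K18+Vim+ in HCC70 only.

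By mean over the 6 libraries, the most abundant transcripts of the list were those of ALDOA, ENO1 and GAPDH. ALDOA, the aldolase of muscle and of most proliferating cells, stood at 1702, 2265 and 1674 FPKM in HCC70 and 809, 749 and 879 FPKM in MDA-MB-468. ENO1, the general enolase, stood at 805, 845 and 776 FPKM in HCC70 and 405, 505 and 489 FPKM in MDA-MB-468. Both genes had all HCC70 values above all MDA-MB-468 values. GAPDH, which makes the NADH of the pathway and is often used as a loading control, stood at 727, 670.0 and 651 FPKM in HCC70 and 682, 369 and 577 FPKM in MDA-MB-468. Its lowest value, in MDA-MB-468 K18+K14+, lay well below the other 5. ALDOA, ENO1 and GAPDH together made 71.4 to 77.9% of the summed FPKM of the glycolysis list in HCC70 and 45.7 to 61.6% in MDA-MB-468. That sum was 4477, 4853 and 4341 FPKM in HCC70 and 3075, 2821 and 4257 FPKM in MDA-MB-468, so only the library with the MDA-MB-468 K18+Vim+ label came near the HCC70 level. The triose isomerase TPI1 stood at 314, 301 and 300.4 FPKM in HCC70 and 123, 227 and 405 FPKM in MDA-MB-468, nearly flat in HCC70 and spread in MDA-MB-468. PGK1, which makes the first ATP of the payoff phase, stood at 199.7, 126 and 156 FPKM in HCC70 and 157, 115 and 142 FPKM in MDA-MB-468, and was highest in K18+ and lowest in K18+K14+ in both lines. PKM, the pyruvate kinase of non-hepatic cells, was the flattest of the abundant enzymes, at 219, 199 and 204 FPKM in HCC70 and 229, 189 and 195 FPKM in MDA-MB-468. The mutase PGAM1 stood at 23.9, 22.7 and 22.3 FPKM in HCC70 and 24.9, 35.9 and 54.7 FPKM in MDA-MB-468. Brain-type isozymes were low: ALDOC ranged from 1.14 to 3.68 FPKM, and ENO2 stood at 7.61, 8.59 and 12.9 FPKM in HCC70 and 4.02, 3.76 and 17.3 FPKM in MDA-MB-468, highest in K18+Vim+ in both lines.

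**Figure D1:**
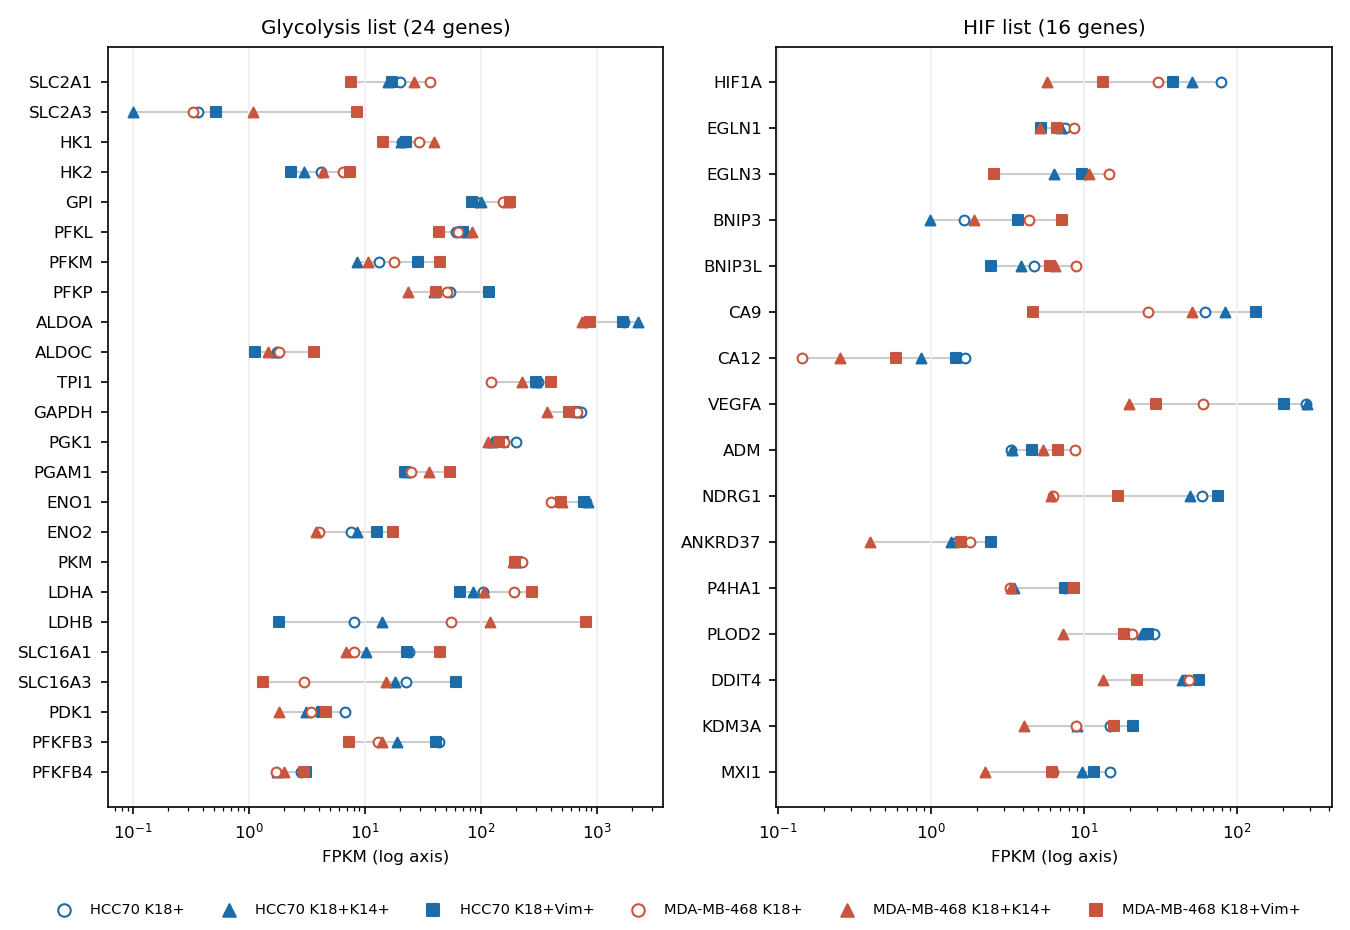
FPKM of each member in each of the 6 libraries, on a log axis, with the glycolysis list on the left and the HIF list on the right; blue marks HCC70, red MDA-MB-468, and the marker shape gives the population. LDHB covers the widest range of the glycolysis list, from 1.84 to 809.7 FPKM, and the VEGFA and NDRG1 values of HCC70 all lie above those of MDA-MB-468.

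Lactate dehydrogenase showed the largest spread. LDHA, whose subunit favours pyruvate reduction and which is a classical HIF and MYC target, stood at 105, 85.2 and 65.7 FPKM in HCC70 and 193, 106 and 278 FPKM in MDA-MB-468. LDHB, whose subunit favours lactate oxidation, stood at 8.15, 14.1 and 1.84 FPKM in HCC70 and 55.5, 119.7 and 809.7 FPKM in MDA-MB-468. All 3 MDA-MB-468 values of LDHB exceeded all HCC70 values, and the library with the MDA-MB-468 K18+Vim+ label was the highest of all. As a share of summed LDHA and LDHB FPKM, LDHB made 7.195, 14.2 and 2.72% in HCC70 and 22.3, 53.1 and 74.4% in MDA-MB-468. LDHA was thus the larger part in all 3 HCC70 libraries and in MDA-MB-468 K18+, and LDHB in the other 2. Among phosphofructokinases, PFKL made 47.5, 61.1 and 32.2% in HCC70 and 47.97, 71.2 and 33.7% in MDA-MB-468. PFKM made 10.3, 6.91 and 13.3% in HCC70 and 13.4, 8.98 and 34.5% in MDA-MB-468, and PFKP made 42.2, 31.99 and 54.5% in HCC70 and 38.6, 19.8 and 31.8% in MDA-MB-468. K18+K14+ had the highest PFKL share in each line, with 61.1 and 71.2%, and K18+Vim+ the lowest, with 32.2 and 33.7%. These shares compare FPKM between genes, which is per length of transcript.

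**Figure D2:**
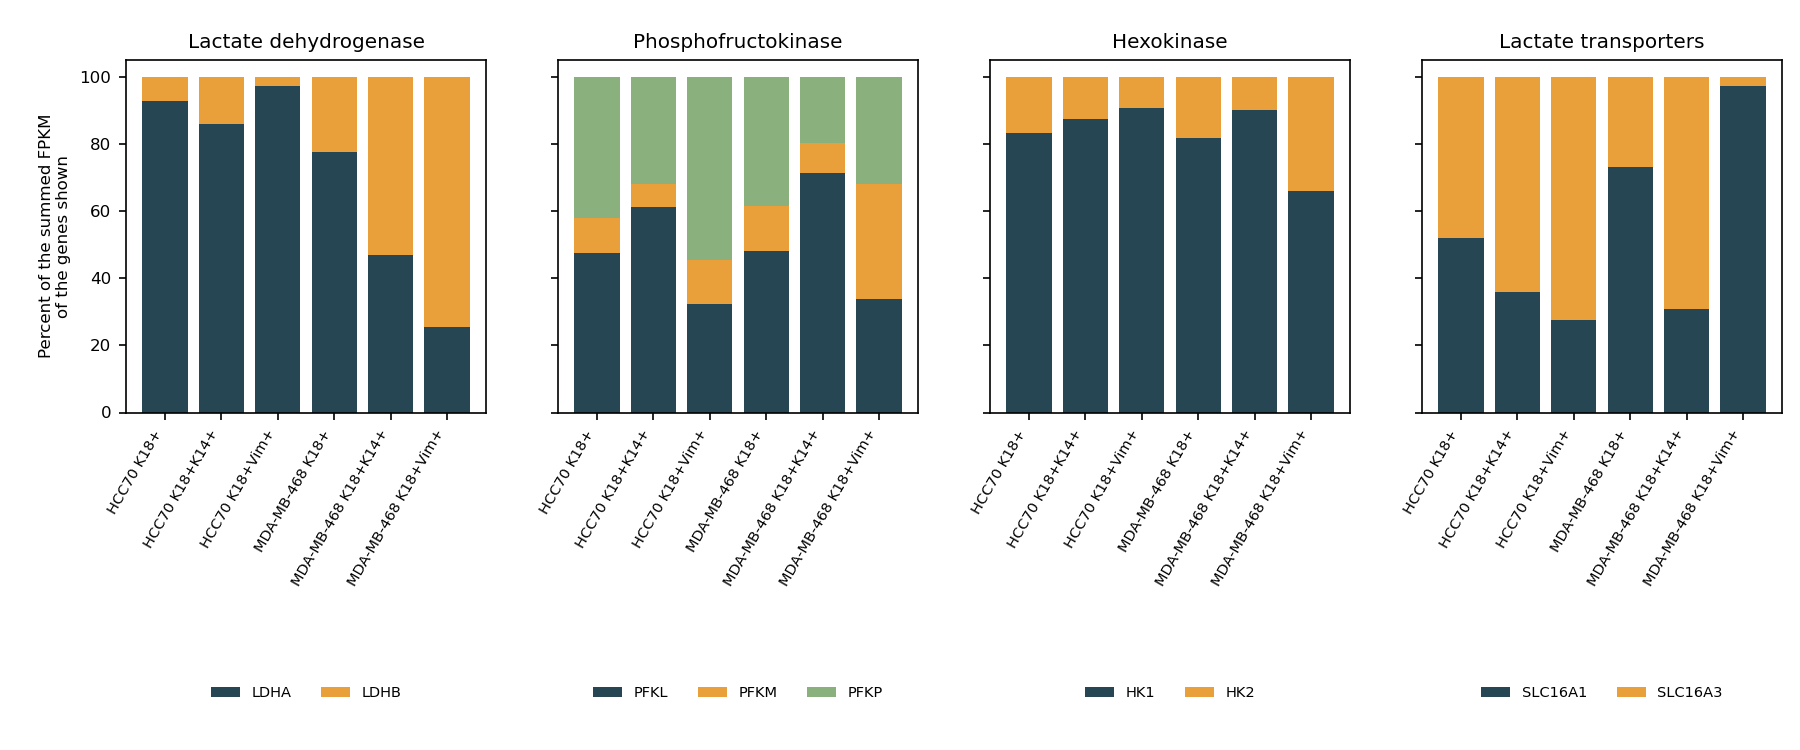
Stacked bars give the percentage of the family's summed FPKM that each gene makes in each of the 6 libraries, for lactate dehydrogenase, phosphofructokinase, hexokinase and lactate transporters. LDHB reaches 74.4% in the library with the MDA-MB-468 K18+Vim+ label and 2.72% in HCC70 K18+Vim+, and PFKL is the largest phosphofructokinase part in the K18+K14+ library of each line.

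Lactate leaves or enters through monocarboxylate transporters: SLC16A1 (MCT1) works in both directions, and SLC16A3 (MCT4) is the low-affinity exporter and a known HIF target. SLC16A1 stood at 24.2, 10.2 and 22.98 FPKM in HCC70 and 8.11, 6.86 and 44.5 FPKM in MDA-MB-468, with the lowest value of each line in K18+K14+. SLC16A3 stood at 22.4, 18.3 and 60.6 FPKM in HCC70 and 2.997, 15.4 and 1.32 FPKM in MDA-MB-468. Its share of the summed FPKM of both transporters was 48.1, 64.2 and 72.5% in HCC70 and 26.98, 69.1 and 2.89% in MDA-MB-468, so the K18+Vim+ library was the highest of its line in HCC70 and the lowest in MDA-MB-468. PDK1 inhibits pyruvate dehydrogenase and so keeps pyruvate out of mitochondria; it stood at 6.69, 3.09 and 4.27 FPKM in HCC70 and 3.45, 1.81 and 4.61 FPKM in MDA-MB-468. PFKFB3 and PFKFB4 set the level of fructose 2,6-bisphosphate, the activator of phosphofructokinase. PFKFB3 stood at 43.9, 18.96 and 41.2 FPKM in HCC70 and 12.9, 14.05 and 7.36 FPKM in MDA-MB-468, and PFKFB4 ranged from 1.72 to 3.09 FPKM.

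On the HIF side, HIF1A stood at 78.8, 50.9 and 38.3 FPKM in HCC70 and 30.3, 5.76 and 13.3 FPKM in MDA-MB-468, and all 3 HCC70 values exceeded all 3 of MDA-MB-468. K18+ had the highest HIF1A value in each line. The EGLN genes encode prolyl hydroxylases that mark HIF alpha for degradation. EGLN1 (PHD2) stood at 7.54, 7.03 and 5.26 FPKM in HCC70 and 8.55, 5.195 and 6.68 FPKM in MDA-MB-468, and EGLN3 (PHD3), itself a HIF target, stood at 10.2, 6.402 and 9.68 FPKM in HCC70 and 14.5, 10.8 and 2.599 FPKM in MDA-MB-468. CA9, a cell-surface carbonic anhydrase used as a hypoxia marker, stood at 61.5, 83.1 and 132 FPKM in HCC70 and 26.3, 50.5 and 4.66 FPKM in MDA-MB-468. Its value was highest in K18+Vim+ within HCC70 and lowest there within MDA-MB-468. CA12, a related carbonic anhydrase, lay between 0.143 and 1.67 FPKM, and its mean under 1 FPKM kept it out of the tests. VEGFA, the angiogenic growth factor, stood at 283, 286 and 202 FPKM in HCC70 and 60.2, 19.7 and 29.5 FPKM in MDA-MB-468. NDRG1, a stress-response gene, stood at 59.1, 49.1 and 75.2 FPKM in HCC70 and 6.29, 6.11 and 16.7 FPKM in MDA-MB-468. For both genes the HCC70 values lay above all MDA-MB-468 values without overlap. ADM, a vasodilator peptide, showed the reverse, from 3.36 to 4.602 FPKM in HCC70 and from 5.43 to 8.75 FPKM in MDA-MB-468.

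BNIP3 and BNIP3L mark mitochondria for removal. BNIP3 stood at 1.65, 0.992 and 3.69 FPKM in HCC70 and 4.399, 1.92 and 7.24 FPKM in MDA-MB-468, and BNIP3L at 4.74, 3.88 and 2.47 FPKM in HCC70 and 8.83, 6.49 and 6.02 FPKM in MDA-MB-468. All of these values lay under 10 FPKM. BNIP3 was lowest in K18+K14+ and highest in K18+Vim+ in each line, while BNIP3L was highest in K18+ in each. DDIT4 (REDD1), an inhibitor of mTORC1, stood at 45.99, 43.8 and 56.6 FPKM in HCC70 and 48.3, 13.3 and 22.1 FPKM in MDA-MB-468, and MXI1, an antagonist of MYC, at 14.8, 9.77 and 11.6 FPKM in HCC70 and 6.29, 2.27 and 6.15 FPKM in MDA-MB-468. KDM3A, a histone demethylase, stood at 14.9, 8.97 and 21.03 FPKM in HCC70 and 8.81, 4.06 and 15.8 FPKM in MDA-MB-468. DDIT4, MXI1 and KDM3A each had their lowest value in MDA-MB-468 K18+K14+. P4HA1 and PLOD2 hydroxylate collagen. P4HA1 stood at 7.52, 3.51 and 7.53 FPKM in HCC70 and 3.28, 3.36 and 8.56 FPKM in MDA-MB-468, and PLOD2 at 28.8, 24.01 and 26.2 FPKM in HCC70 and 20.6, 7.33 and 18.3 FPKM in MDA-MB-468. ANKRD37, a small ankyrin-repeat protein, ranged from 0.4 to 2.47 FPKM, with its lowest value also in MDA-MB-468 K18+K14+. The HIF list summed to 625, 583 and 600.0 FPKM in HCC70 and to 257, 143 and 166 FPKM in MDA-MB-468, with no overlap, and VEGFA was the largest single part in HCC70.

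HIF binds a short core whose letters are ACGTG or GCGTG, so the promoters of the members were searched for both on both strands. The stretches are RefSeq sequence of GRCh38.p14, from 250 bases before to 50 after the first listed start of each gene; the data were aligned to GRCh37, and no data coordinate is used. An entry was found for 35 of the 40 members (the others were SLC2A3, SLC16A1, VEGFA, BNIP3L and NDRG1). ACGTG was present in 15 of them (42.9%), against 26.6% of the 10204 tested genes with a promoter, and GCGTG in 18 (51.4%), against 50.4%. Either was present in 26 (74.3%), against 62.8%: 11 of 13 (84.6%) on the HIF list and 15 of 22 (68.2%) on the glycolysis list. ACGTG overlaps CACGTG, the E-box of MYC and related factors, which reads the same on both strands. A match describes letters in this window and is not evidence of binding. The stretches that follow are 3 targets from the HIF list, then 3 enzymes, then HIF1A, chosen because their letters lie close together or because the results turn on the gene. They are CA9 (chr9:35673883-35673927, + strand), ANKRD37 (chr4:185396661-185396710, +), BNIP3 (chr10:131982019-131982073, -), PGK1 (chrX:78104028-78104077, +), LDHA (chr11:18394463-18394507, +), GAPDH (chr12:6535164-6535203, +) and HIF1A (chr14:61695288-61695332, +). Each is printed in the direction of its gene, with capitals for ACGTG or GCGTG on either strand (CACGT or CACGC when on the opposite strand).
CA9: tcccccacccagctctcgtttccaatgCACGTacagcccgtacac
ANKRD37: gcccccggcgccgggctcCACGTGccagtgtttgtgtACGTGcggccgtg
BNIP3: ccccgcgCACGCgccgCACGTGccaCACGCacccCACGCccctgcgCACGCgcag
PGK1: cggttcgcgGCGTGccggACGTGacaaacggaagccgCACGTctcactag
LDHA: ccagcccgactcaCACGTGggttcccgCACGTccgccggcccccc
GAPDH: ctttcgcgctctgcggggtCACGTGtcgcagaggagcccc
HIF1A: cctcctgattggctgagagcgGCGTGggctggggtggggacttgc

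Between the lines, HIF1A and 2 of its known targets were called lower in MDA-MB-468, and 1 enzyme was called higher. The test was limma on log2(FPKM + 1) over the 12454 genes that averaged 1 FPKM or more, with population and line as terms and Benjamini-Hochberg adjustment; 39 of the 40 members entered it. Differences are MDA-MB-468 minus HCC70, and negative values are lower in MDA-MB-468. Fitted differences are given with their standard error (SE). Each side is 1 cell line, so here the 3 populations of a line serve as its replicates. The SE and p-values thus measure how the line difference varied between sorted populations, not between cultures or lines. VEGFA differed by -2.91 ± 0.41 SE, adjusted p = 0.0148. NDRG1 differed by -2.66 ± 0.34 SE, adjusted p = 0.0117. HIF1A differed by -1.92 ± 0.41 SE, adjusted p = 0.0358. LDHB differed by 4.596 ± 1.04 SE, adjusted p = 0.0394. So 1 of 24 glycolysis members was called higher and 0 lower, and on the HIF list 0 of 15 higher and 3 lower. Over all genes tested, 4.54% were called higher and 7.68% lower in this comparison. By non-overlap of the 3 libraries of each line, 5 glycolysis members were higher and 4 lower in MDA-MB-468, and 2 HIF members were higher and 6 lower, against 20.1% and 21% of all genes. Among the 17 enzymes 5 were higher and 2 lower, and among the 12 HIF targets tested 2 were higher and 5 lower. Members whose libraries did not overlap without passing the test included PFKFB3 (-1.48 ± 0.43 SE, adjusted p = 0.0708), SLC16A3 (-2.51 ± 0.78 SE, adjusted p = 0.0809), ALDOA (-1.199 ± 0.404 SE, adjusted p = 0.0962) and CA9 (-2.15 ± 0.74 SE, adjusted p = 0.1004), all with lower values in MDA-MB-468. MXI1 (-1.22 ± 0.33 SE, adjusted p = 0.06), PLOD2 (-0.85 ± 0.36 SE, adjusted p = 0.16) and ENO1 (-0.80 ± 0.37 SE, adjusted p = 0.187) were also lower there without overlap and not called by limma. Higher there without overlap, and not called by limma, were LDHA (1.08 ± 0.44 SE, adjusted p = 0.141), GPI (0.87 ± 0.33 SE, adjusted p = 0.128), BNIP3L (0.80 ± 0.31 SE, adjusted p = 0.128), HK2 (0.77 ± 0.34 SE, adjusted p = 0.174), ADM (0.72 ± 0.32 SE, adjusted p = 0.175) and PGAM1 (0.65 ± 0.36 SE, adjusted p = 0.251). LDHA, BNIP3L, HK2 and ADM are also HIF targets. The hydroxylases gave 0.03 ± 0.32 SE, adjusted p = 0.96 for EGLN1 and -0.14 ± 0.49 SE, adjusted p = 0.861 for EGLN3. GAPDH gave -0.37 ± 0.39 SE, adjusted p = 0.5303, SLC2A1 gave 0.14 ± 0.45 SE, adjusted p = 0.841, and PDK1 gave -0.41 ± 0.34 SE, adjusted p = 0.424.

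Without the library with the MDA-MB-468 K18+Vim+ label, the line difference rests on the K18+ and K18+K14+ libraries of both lines, and 11.5% of all genes were called higher and 15.4% lower. VEGFA then stood at -3.002 (limma adjusted p = 0.00282), NDRG1 at -2.93 (adjusted p = 0.000641) and HIF1A at -2.15 (adjusted p = 0.00816). MXI1 was also called, at -1.42 (adjusted p = 0.0183). LDHB kept its call with a smaller difference, 2.81 (adjusted p = 0.000789). SLC16A3 was then at -1.39 (adjusted p = 0.0742), CA9 at -0.95 (adjusted p = 0.085), PFKFB3 at -1.05 (adjusted p = 0.0803) and ALDOA at -1.33 (adjusted p = 0.157), none of them called. In the same fit, which had 1 residual degree of freedom, LDHA stood at 0.59, GPI at 0.77 and BNIP3L at 0.70. HK2 stood at 0.48, ADM at 0.85 and PGAM1 at 0.35. By non-overlap with that library left out, 7 glycolysis members were higher and 7 lower, and 3 HIF members higher and 8 lower, against 28% of all genes higher and 28% lower. Leaving out 1 other library ended some calls: HIF1A without any 1 of the K18+ or K18+K14+ libraries (adjusted p of 0.117 to 0.129), NDRG1 without either K18+ library (0.0809 and 0.0799) and LDHB without either K18+K14+ library (0.0581 and 0.0544). Leaving out either K18+K14+ library also added a call, SLC16A3 at -3.64 (adjusted p of 0.0294 and 0.026). With no filter on low values, 0 of 18795 genes passed.

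**Figure D3:**
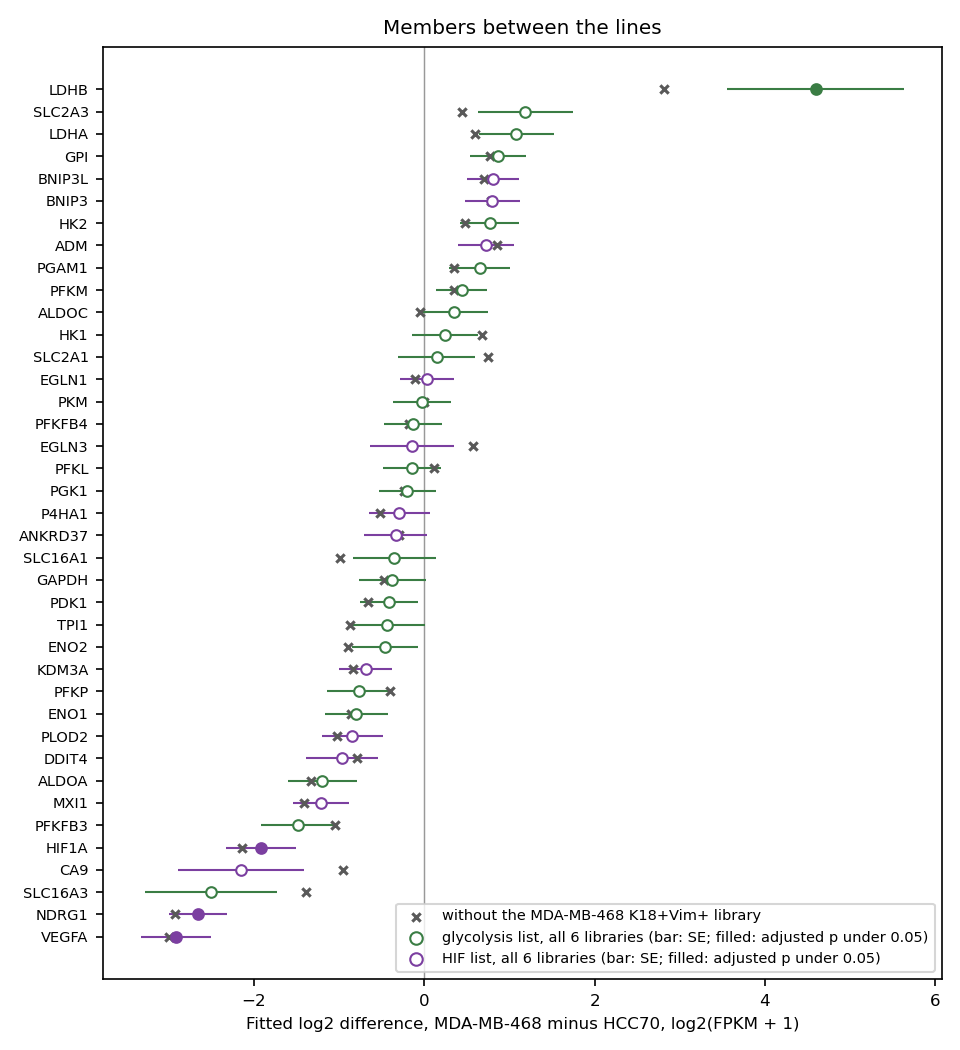
Fitted log2 difference of each tested member, MDA-MB-468 minus HCC70 on log2(FPKM + 1), with all 6 libraries (circles with bars of 1 SE, filled where the limma adjusted p is under 0.05) and without the library with the MDA-MB-468 K18+Vim+ label (crosses). LDHB at 4.596 and VEGFA at -2.91 mark the ends, and the LDHB cross lies at 2.81.

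The study's design sets the sorted populations against each other, and K18+K14+ cells were first set against K18+ cells within each line. Most members of the HIF list had lower values in K18+K14+, and the glycolysis list was divided. HIF1A was 1.55-fold lower in HCC70 and 5.26-fold lower in MDA-MB-468, a fitted difference of -1.42 ± 0.51 SE, adjusted p = 0.855 by limma. KDM3A was 1.66-fold lower in HCC70 and 2.17-fold lower in MDA-MB-468, and MXI1 1.51-fold lower in HCC70 and 2.77-fold lower in MDA-MB-468. PDK1 was 2.16-fold lower in HCC70 and 1.91-fold lower in MDA-MB-468, PFKM 1.56-fold lower in HCC70 and 1.69-fold lower in MDA-MB-468 and PFKP 1.38-fold lower in HCC70 and 2.21-fold lower in MDA-MB-468. CA9 and LDHB ran the other way: CA9 was 1.35-fold higher in HCC70 and 1.92-fold higher in MDA-MB-468, and LDHB 1.73-fold higher in HCC70 and 2.16-fold higher in MDA-MB-468. VEGFA gave log2 ratios of 0.01 (HCC70) and -1.56 (MDA-MB-468), so its lower value was seen in MDA-MB-468 alone. Of 15 HIF members, 1 was higher and 11 lower in both lines, and of 24 glycolysis members 4 were higher and 11 lower, against 20.2% higher and 43.7% lower among all genes. The 12 HIF targets tested gave 1 higher and 8 lower, and the 17 enzymes alone 4 higher and 8 lower. The HIF median relative to that of all genes stood at -0.11 (HCC70) and -0.72 (MDA-MB-468), and the glycolysis median at -0.06 and 0.08. The MDA-MB-468 K18+K14+ library had the lowest median of tested genes, 8.12 FPKM, and the most of them at the floor, 300. Its top 100 genes held 36.3% of its FPKM, against 25.0% in K18+ of that line. Whether this bears on the medians was not tested. Other members lower in both lines included SLC2A1 (-0.32 and -0.44 on the log2 scale), HK2 (-0.39 and -0.48), LDHA (-0.299 and -0.86), GAPDH (-0.12 and -0.88), EGLN1 (-0.09 and -0.62) and EGLN3 (-0.596 and -0.398).

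None of these differences passed the test. The fitted differences were -0.81 ± 0.38 for KDM3A, -0.85 ± 0.405 for MXI1, -0.79 ± 0.42 for PDK1, -0.65 ± 0.37 for PFKM, -0.78 ± 0.47 for PFKP, 0.91 ± 1.27 for LDHB and 0.67 ± 0.905 for CA9, with adjusted p from 0.855 to 0.903 by limma. Fitted over 5 libraries, LDHB turned to -0.57 without the MDA-MB-468 K18+ library, and CA9 to -0.41 without the K18+K14+ library of that line. Such fits also draw on the K18+Vim+ libraries of both lines. The HCC70 pair alone gave log2 ratios of 0.72 for LDHB and 0.43 for CA9. limma called 0 of 39 members and 0% of all genes, with 1 member (HIF1A) and 428 genes (3.44%) at an unadjusted p under 0.05. The SE of this comparison drew on all 6 libraries, K18+Vim+ included. In a fit of only the 4 libraries compared, with 1 residual degree of freedom, the SE was 0.34 for LDHB and 0.35 for CA9. That fit called 0 genes too, with 1599 (12.8%) at an unadjusted p under 0.05 and a smallest adjusted p of 0.0734 by limma. Log2 ratios also ran with transcript length over 12409 genes (Spearman -0.157 in HCC70 and -0.244 in MDA-MB-468), and the median length was 1289 bases for the glycolysis list, 1802 for the HIF list and 1763 for all genes tested. The length of a gene is the median over its annotated protein-coding transcripts, with no minimum length. It can be short, such as 569.5 bases for SLC2A1. With a length correction the HIF medians were -0.16 and -0.60.

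**Figure D4:**
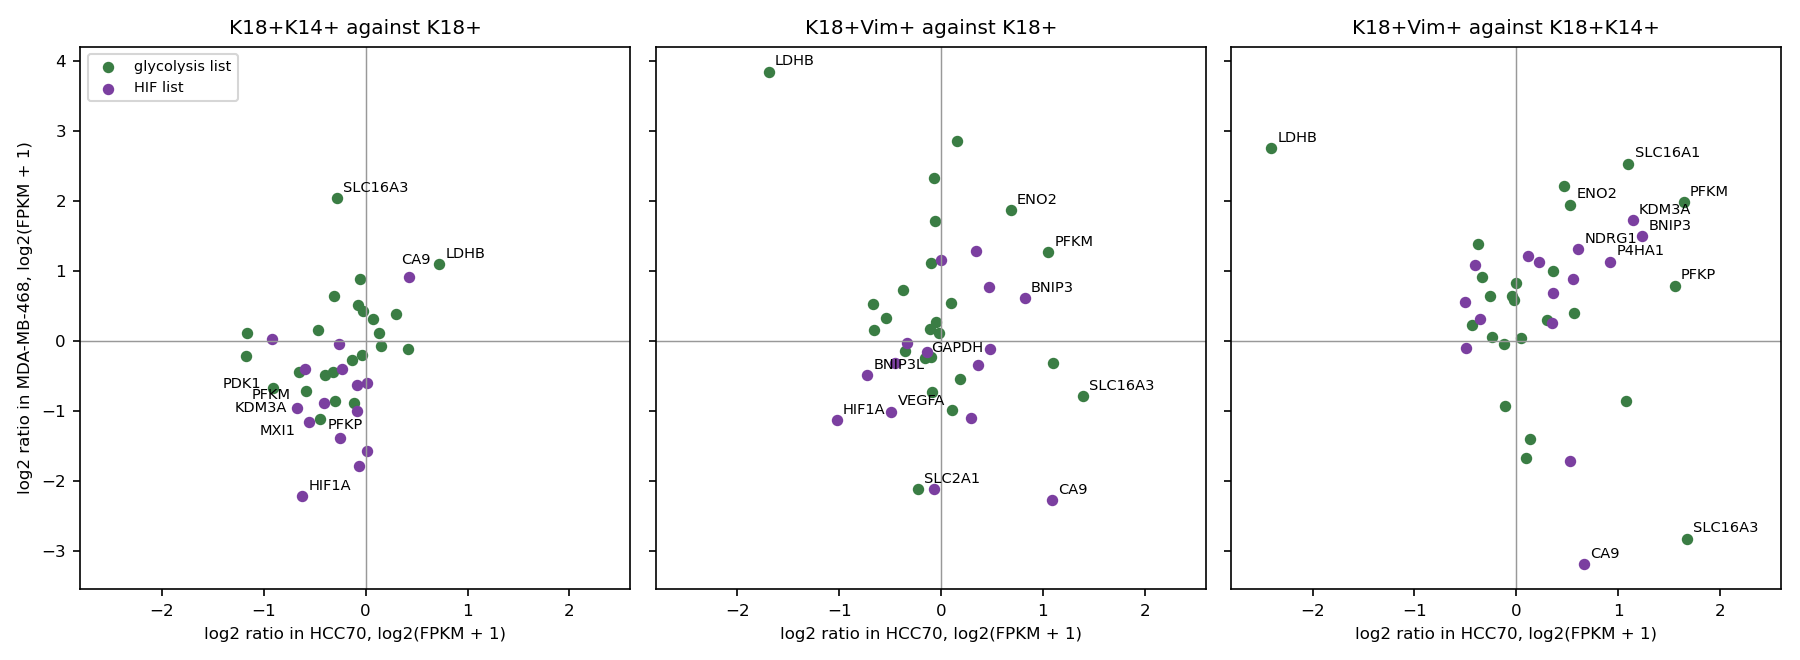
Log2 ratio of each tested member in HCC70 (x axis) against that in MDA-MB-468 (y axis), on log2(FPKM + 1), for each pair of populations; points in the upper right or lower left have the same direction in both lines. In K18+K14+ against K18+ most purple points (HIF list) lie at the lower left, and LDHB, CA9 and SLC16A3 lie far from the diagonal in one or both comparisons with K18+Vim+.

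In K18+Vim+ against K18+, the directions split within each list. PFKM was 2.16-fold higher in HCC70 and 2.49-fold higher in MDA-MB-468, with a fitted difference of 1.16 ± 0.37 SE, adjusted p = 0.863 by limma. ENO2 was 1.69-fold higher in HCC70 and 4.32-fold higher in MDA-MB-468 (1.28 ± 0.47 SE, adjusted p = 0.863 by limma), and the mitophagy gene BNIP3 was 2.23-fold higher in HCC70 and 1.64-fold higher in MDA-MB-468. HIF1A was 2.06-fold lower in HCC70 and 2.28-fold lower in MDA-MB-468, VEGFA 1.405-fold lower in HCC70 and 2.04-fold lower in MDA-MB-468 and BNIP3L 1.92-fold lower in HCC70 and 1.47-fold lower in MDA-MB-468. SLC2A1 was 1.18-fold lower in HCC70 and 4.76-fold lower in MDA-MB-468, so nearly all of its difference came from the library with the MDA-MB-468 K18+Vim+ label. GAPDH was 1.12-fold lower in HCC70 and 1.18-fold lower in MDA-MB-468. The fitted differences were 0.72 ± 0.396 for BNIP3, -1.08 ± 0.51 for HIF1A, -0.75 ± 0.503 for VEGFA, -0.61 ± 0.38 for BNIP3L, -1.17 ± 0.55 for SLC2A1 and -0.199 ± 0.48 for GAPDH, with adjusted p from 0.863 to 0.972 by limma. Several members had opposite directions in the lines: LDHB gave log2 ratios of -1.69 (HCC70) and 3.84 (MDA-MB-468), CA9 of 1.09 (HCC70) and -2.27 (MDA-MB-468), and LDHA of -0.67 (HCC70) and 0.53 (MDA-MB-468). HK2 gave -0.65 and 0.16 and PDK1 -0.54 and 0.33, in the same order. Both hydroxylases were lower in both lines, EGLN1 by log2 ratios of -0.45 and -0.31 and EGLN3 by -0.07 and -2.11.

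Counted over both lines, 4 glycolysis members were higher and 5 lower of 24, and 4 HIF members higher and 7 lower of 15, against 16.5% and 33.9% of all genes. The 17 enzymes alone gave 2 higher and 3 lower, and the 12 HIF targets tested gave 4 higher and 4 lower. These counts need the library with the MDA-MB-468 K18+Vim+ label and have no version without it. Relative list medians were 0.08 in HCC70 and 0.26 in MDA-MB-468 for glycolysis, and 0.16 and -0.28 for HIF. limma called 0 of 39 members and 0% of genes, with 2 members (PFKM and ENO2) and 532 genes (4.27%) at an unadjusted p under 0.05. Leaving out 1 of the K18+Vim+ libraries leaves 1 for the population, so only fitted differences are given. Without the library with the MDA-MB-468 K18+Vim+ label LDHB stood at -1.60 and CA9 at 1.22. Without the HCC70 K18+Vim+ library the MDA-MB-468 library alone stands for the population. LDHB then stood at 3.75, ENO2 at 1.93, SLC2A1 at -2.08, EGLN3 at -2.16 and CA9 at -2.39. SLC2A3 entered the test only through the library with the MDA-MB-468 K18+Vim+ label. SLC2A3 is also 1 of the 4 glycolysis members counted as higher in both lines, and 3 are left without it.

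K18+Vim+ was last set against K18+K14+, a comparison that shares its libraries with the previous ones. Here 18 of 39 members, SLC2A3 among them, had higher values in K18+Vim+ in both lines, and 3 had lower ones. PFKM was 3.38-fold higher in HCC70 and 4.21-fold higher in MDA-MB-468 (1.81 ± 0.37 SE, adjusted p = 0.682 by limma), and PFKP 2.99-fold higher in HCC70 and 1.76-fold higher in MDA-MB-468. SLC16A1 was 2.26-fold higher in HCC70 and 6.48-fold higher in MDA-MB-468, and ENO2 1.497-fold higher in HCC70 and 4.61-fold higher in MDA-MB-468. On the HIF list, KDM3A was 2.34-fold higher in HCC70 and 3.89-fold higher in MDA-MB-468 (1.44 ± 0.38 SE, adjusted p = 0.682 by limma) and BNIP3 3.72-fold higher in HCC70 and 3.77-fold higher in MDA-MB-468. P4HA1 was 2.15-fold higher in HCC70 and 2.55-fold higher in MDA-MB-468, and NDRG1 1.53-fold higher in HCC70 and 2.73-fold higher in MDA-MB-468. The fitted differences were 1.17 ± 0.47 for PFKP, 1.82 ± 0.596 for SLC16A1, 1.24 ± 0.47 for ENO2, 1.37 ± 0.396 for BNIP3, 1.03 ± 0.44 for P4HA1 and 0.96 ± 0.41 for NDRG1, each with an adjusted p of 0.682 by limma. In the opposite direction in both lines stood PFKL (-0.11 and -0.93 on the log2 scale), ENO1 (-0.12 and -0.05) and BNIP3L (-0.49 and -0.09). LDHB (-2.41 and 2.75), SLC16A3 (1.68 and -2.82) and CA9 (0.67 and -3.19) had opposite directions in HCC70 and MDA-MB-468. HIF1A did too, with -0.4 (HCC70) and 1.08 (MDA-MB-468), as did VEGFA, with -0.5 and 0.56 in the same order. The log2 ratios of SLC2A1 were 0.09 and -1.67, of HK2 -0.26 and 0.64, of LDHA -0.37 and 1.39 and of GAPDH -0.04 and 0.64. PDK1 gave 0.37 and 0.996, EGLN1 -0.36 and 0.31 and EGLN3 0.53 and -1.71.

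Over both lines, 9 of 24 glycolysis members were higher and 2 lower, and 9 of 15 HIF members were higher and 1 lower, against 25.6% and 23.7% of all genes. Of the 17 enzymes alone 5 (29.4%) were higher and 2 lower, and of the 12 HIF targets tested 9 (75%) were higher and 1 lower. Such counts again have no version without the library with the MDA-MB-468 K18+Vim+ label. The relative medians were 0.08 in HCC70 and 0.50 in MDA-MB-468 for glycolysis and 0.38 and 0.77 for HIF. limma called 0 of 39 members and 0% of genes, with 6 members and 680 genes (5.46%) at an unadjusted p under 0.05. Without the library with the MDA-MB-468 K18+Vim+ label LDHB stood at -2.50 and CA9 at 0.54. Without the HCC70 K18+Vim+ library LDHB stood at 2.84 and CA9 at -3.06. Without SLC2A3, 8 glycolysis members were higher in both lines.

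Further genes of both pathways were examined from lists that hold no member. Of 49 other genes of glycolysis, gluconeogenesis, the pentose phosphate pathway and pyruvate handling, 35 were tested. limma called 0 in any pair of populations (background 0%), and 2 higher and 5 lower in MDA-MB-468 (background 4.54% and 7.68%). FBP1, the gluconeogenic enzyme that opposes phosphofructokinase, stood at 36.5, 42.99 and 16.7 FPKM in HCC70 and 0.907, 0.144 and 0.142 FPKM in MDA-MB-468, and fell by 4.505 on the log2 scale in MDA-MB-468 (adjusted p = 0.00399 by limma). PCK2, the mitochondrial enzyme that makes phosphoenolpyruvate, stood at 143, 141 and 124 FPKM in HCC70 and 36.6, 26.4 and 26.9 FPKM in MDA-MB-468 (adjusted p = 0.0166). PDHX, a component of the pyruvate dehydrogenase complex, stood at 6.31, 4.19 and 2.47 FPKM in HCC70 and 39.6, 36.96 and 14.5 FPKM in MDA-MB-468 and was higher in MDA-MB-468 (adjusted p = 0.0116). The other called genes were LDHD, PDK3 and PDP1, lower, and TALDO1, higher. LDHD stood at 0.829, 0.171 and 0.236 FPKM in MDA-MB-468. FBP1 and LDHD, under 1 FPKM in every MDA-MB-468 library, entered the test through HCC70, so their lower calls are not independent of the filter. Without the library with the MDA-MB-468 K18+Vim+ label all 7 of these calls held, and 4 of the 35 were called higher and 6 lower (background 11.5% and 15.4%). In both lines 5 of the 35 were higher and 17 lower in K18+K14+ against K18+ (20.2% and 43.7% of all genes). In K18+Vim+ against K18+ 6 were higher and 17 lower (16.5% and 33.9%), and in K18+Vim+ against K18+K14+ 7 were higher and 9 lower (25.6% and 23.7%).

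Of 62 other genes of the HIF pathway 59 were in the table and 52 were tested. limma called 0 in any pair of populations (background 0%) and 3 higher and 11 lower in MDA-MB-468 (background 4.54% and 7.68%). ERO1A, which oxidises thiols in the endoplasmic reticulum, stood at 98.98, 84.4 and 80.3 FPKM in HCC70 and 19.6, 8.86 and 20.5 FPKM in MDA-MB-468 (adjusted p = 0.0166). P4HA2, the sister enzyme of P4HA1, stood at 30.5, 26.03 and 45.8 FPKM in HCC70 and 10.4, 10.7 and 10.2 FPKM in MDA-MB-468 (adjusted p = 0.0339). CITED2, which competes with HIF for its coactivator, stood at 7.42, 4.39 and 6.75 FPKM in HCC70 and 39.7, 23.5 and 17.5 FPKM in MDA-MB-468 (adjusted p = 0.0253). CITED2 was thus among the genes higher in MDA-MB-468, with JMJD6 and CSRP2, and the other lower ones were CUL2, BHLHE40, KDM4C, EFNA3, NFIL3, VLDLR, ERRFI1, IGFBP3 and TGFBI. CSRP2 stood at 0.204, 0.1 and 0.323 FPKM in HCC70. It entered the test through MDA-MB-468, so its higher call is not independent of the filter. Without the library with the MDA-MB-468 K18+Vim+ label all 14 calls held, and 7 of the 52 were called higher and 14 lower (background 11.5% and 15.4%). The difference of IGFBP3 went from -3.12 to -1.92 and that of CSRP2 from 3.14 to 2.25. Of the 52, 6 were higher and 29 lower in both lines in K18+K14+ against K18+ (20.2% and 43.7% of all genes). The counts were 7 and 21 in K18+Vim+ against K18+ (16.5% and 33.9%), and 14 and 11 in K18+Vim+ against K18+K14+ (25.6% and 23.7%).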

How the data were processed

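Messenger RNA was sequenced in 6 libraries, 1 per sorted population and line. The deposited values are FPKM per Entrez Gene ID, made by the authors. Per the submitters' processing notes, TopHat2 and GRCh37 were used; the counter is not given in the sources used here, nor is the annotation. Of 18807 rows, 7 with a blank value, all in the MDA-MB-468 K18+Vim+ column, and 5 repeats were left out, which left 18795 genes, 18731 of them with a symbol. Depth is unknown, so no counting interval is given, and p-values measure only the spread between these samples, since separate cultures are not named. RNA from fixed cells may be broken in ways that act on long and short transcripts unequally. Reads of members with pseudogenes (16 members, such as GAPDH and BNIP3) or antisense genes (6) may be shared.

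Values became log2(FPKM + 1), and genes averaging 1 FPKM or more were tested by limma 3.58.1 (R 4.3.3, with trend), with population and line as terms, all 6 libraries and 2 residual degrees of freedom, adjusted by Benjamini-Hochberg over 12454 genes at 0.05. Log2 ratios and fitted differences are on this scale, which understates the change of low genes; folds are ratios of FPKM. Pairing is by cell line: deviations from population means correlated at 0.474 to 0.796 between populations of a line. A length correction, where given, removes the trend of log2 ratio on transcript length. Members, lists, tests and alternatives were chosen with earlier results of these data known. Members named with fitted differences were up to 4 per list and comparison with the largest change shared by both lines (for the lines, the largest difference without overlap). HIF1A, EGLN1, EGLN3, CA9, VEGFA, SLC2A1, HK2, LDHA, LDHB, GAPDH and PDK1 were always named, between populations in part with log2 ratios only. The fit was tested on simulated data. Alternatives were pseudocounts of 0.1 and 5, no filter, a minimum of 5 FPKM, quantile normalization, no centring, a length correction, no block, no trend, only the libraries of the populations compared, and leaving out each library. No block means that the term not being compared was left out, line between populations and population between lines. Counts, ratios and figures were made in Python 3.11.15 (pandas 2.3.3, numpy 2.4.6, matplotlib 3.10.9).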

Additional observations from a re-analysis of the deposited data

Results flagged for a closer look

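In 3 members the lines moved in opposite directions by at least 1 on the log2(FPKM + 1) scale when K18+Vim+ was set against another population. With 1 library per population and line, these differences between the lines were not tested, and each rests on the library with the MDA-MB-468 K18+Vim+ label. The log2 ratio of LDHB in K18+Vim+ against K18+ was -1.69 (HCC70) and 3.84 (MDA-MB-468), 5.53 apart. Against K18+K14+ it was -2.41 (HCC70) and 2.75 (MDA-MB-468), 5.16 apart. The carbonic anhydrase CA9 had ratios of 1.09 (HCC70) and -2.27 (MDA-MB-468) against K18+, with MDA-MB-468 less HCC70 at -3.36. The lactate exporter SLC16A3 had ratios of 1.68 (HCC70) and -2.82 (MDA-MB-468) against K18+K14+, with MDA-MB-468 less HCC70 at -4.49.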

How the results depend on the processing

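Among 64 pairs of a named member and a comparison, 950 values were recomputed under other settings: 868 kept their direction and side of the threshold, 51 changed direction, 13 lost and 18 gained a call. The cause of these changes was not tested. Many of the 868 could not have changed direction. No block, no trend, no filter, a higher filter and only the libraries compared leave a fitted difference as it was. Leaving out a population's library from either line gives the same difference between the lines. Between populations no member was called in the main fit, so no call could be lost there. The 868 is therefore not a measure of robustness. With no filter, 0 members were called between the lines (smallest adjusted p over 18795 genes 0.122 by limma), where many genes at the floor enter the fit. The mean relative glycolysis median of K18+K14+ against K18+, 0.01, became -0.15 with no filter and -0.15 without centring. In K18+Vim+ against K18+, PDK1 became 0.085 with quantile normalization. In K18+Vim+ against K18+K14+, VEGFA became -0.0058 with a pseudocount of 5 and -0.022 with quantile normalization, and LDHB became -0.057 with a pseudocount of 0.1. Between the lines, EGLN1 became -0.11 and EGLN3 0.57 without both K18+Vim+ libraries, an alternative chosen after seeing the data. Without the population term, 5 members were called between the lines and HIF1A was not (adjusted p = 0.056 by limma). Of all 12454 genes, 765 were then called higher and 1110 lower.

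Leaving out each library in turn gave 0 to 7 called members in K18+Vim+ against K18+ and 0 to 9 against K18+K14+, the highest of each with SLC2A3, and 2 to 5 between the lines, the 2 without either K18+ library. These fitted ranges cross 0. For K18+K14+ against K18+: LDHB -0.57 to 2.38, CA9 -0.41 to 1.76, EGLN3 -1.11 to 0.11, SLC2A1 -0.88 to 0.12 and LDHA -1.16 to 0.0007. For K18+Vim+ against K18+: GAPDH -0.41 to 0.013, CA9 -2.39 to 1.22, HK2 -0.67 to 0.18, LDHA -0.81 to 0.67, LDHB -1.60 to 3.75 and PDK1 -0.48 to 0.27. For K18+Vim+ against K18+K14+: HIF1A -0.43 to 1.11, EGLN1 -0.33 to 0.28, EGLN3 -1.66 to 0.48, CA9 -3.06 to 0.54, VEGFA -0.63 to 0.69, SLC2A1 -1.70 to 0.12, HK2 -0.24 to 0.62, LDHA -0.23 to 1.25, LDHB -2.50 to 2.84 and GAPDH -0.062 to 0.66. For the lines: EGLN1 -0.11 to 0.23, EGLN3 -0.55 to 0.57 and SLC2A1 -0.19 to 0.75. Where a population is left with 1 library, that library is assumed to vary like the others. A fit between populations then also draws on the population not compared. With depth unknown, members near 1 FPKM, such as ALDOC, ANKRD37, BNIP3 and SLC2A3, carry a counting error that could not be given.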
